A study of Drosophila melanogaster with 2 samples.

Results

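The muscle and heart genes of *Drosophila melanogaster* examined here are a fixed list of 34 symbols, all of which matched a single annotated gene, out of 13945 protein-coding genes on the 6 chromosome arms. The list holds 7 myogenic regulators (Mef2, twi, tin, bap, bin, nau and lmd), 4 genes of myoblast fusion (mbc, sns, kirre and rols), 20 genes of the sarcomere and 3 others (how, kon and Msp300). Their start sites and introns were searched for binding of Camta, a calmodulin-binding transcription activator. The data are chromatin immunoprecipitation and sequencing (ChIP-seq) peak lists from 1 group of 2 samples, which the labels call biological replicates 2 and 3. Each was whole embryos of the Camta-MiMIC-GFP strain, pooled male and female and aged 0 to 24 hours, in which an eGFP exon inserted into an intron of Camta makes a Camta-eGFP fusion, precipitated with an antibody to GFP. There was no second genotype, stage or treatment, and the lists give neither read depth nor RNA levels. Whole embryos mix all cell types, so the lists do not say in which cells a site was bound, and the muscle identity of the genes rests on their known roles and not on these data.

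In the fly embryo the transcription factor Twist sets up the mesoderm. Tinman then directs the heart and dorsal mesoderm, Bagpipe and Biniou the gut muscle, and Mef2 switches on the genes of differentiated muscle. Body wall muscles form when founder cells, which carry the adhesion protein Kirre, attract and fuse with fusion-competent myoblasts, which carry Sns, and the fused fibres then build sarcomeres from actin, myosin, tropomyosin, troponin and titin-like proteins.

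Binding at start sites was about as common among the muscle and heart genes as among all genes. An optimal IDR peak is a region that passed the authors' threshold on the irreproducible discovery rate, a measure of agreement between replicates, and its summit is the position of highest enrichment. An IDR summit lay 500 bp or less from a start site of 7 of the 34 genes (20.6%), against 18.8% of all protein-coding genes. These were the regulators Mef2 and tin, the fusion gene mbc, the sarcomere genes sls and Tm1, and how and Msp300 among the others. By role this was 2 of 7 regulators (28.6%), 1 of 4 fusion genes (25%), 2 of 20 sarcomere genes (10%) and 2 of the 3 others. The roles were compared by these counts alone, and differences between them were not tested. A gene counts through any of its start sites. The 34 genes had a median of 2 start sites, against 1 over all protein-coding genes, and this was not allowed for. Of the 34 genes, 20 (58.8%) had a region of any strength at a start site in the relaxed list of the pooled replicates, which also holds background candidates, against 53.2% of all protein-coding genes.

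**Figure D1:**
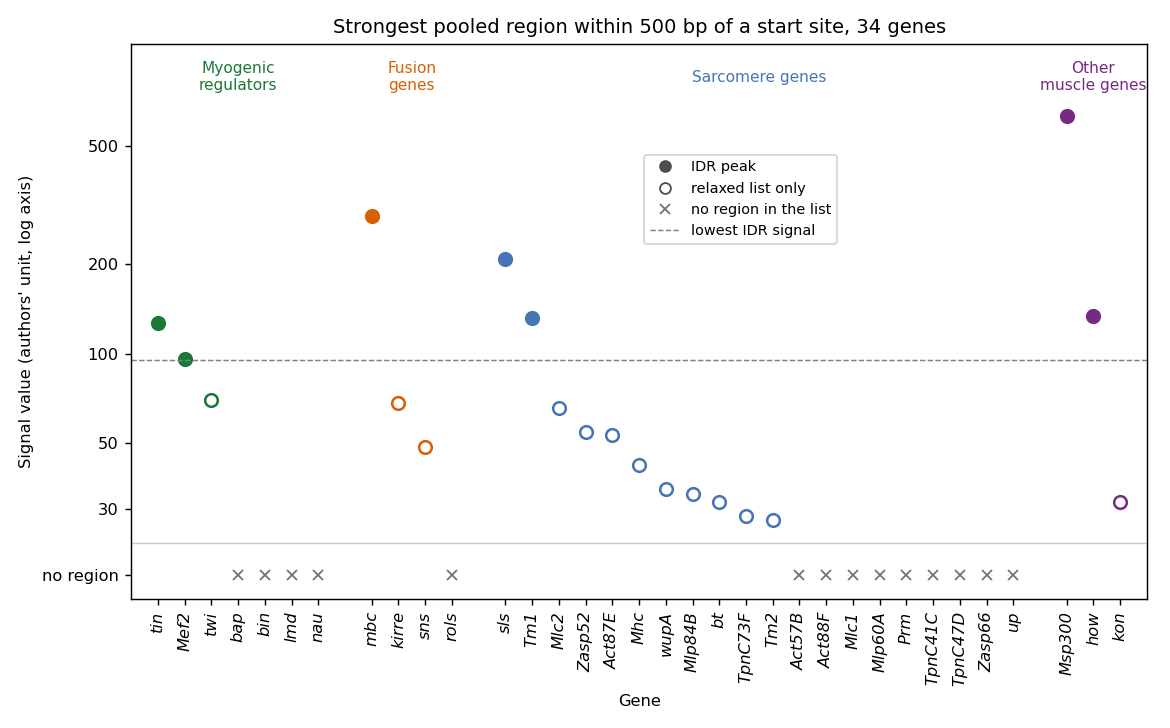
Strongest region of the pooled relaxed list within 500 bp of a start site of each of the 34 genes, by role, as the authors' signal value on a log axis. Filled points are IDR peaks, open points are regions of the relaxed list only, crosses mark genes with no region, and the dashed line is the lowest IDR signal value, 95.3. Msp300 stands highest at 628, and 18 of 20 sarcomere genes have an open point or a cross.

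The strongest start-site peak belonged to Msp300, which encodes a nesprin that anchors nuclei in muscle fibres. At chr2L:5108014-5108305 its signal value was 628, which placed it at 99 among 4033 IDR peaks. It ranked 110 in the relaxed list of replicate 2, with a signal value of 229 there, and 88 in that of replicate 3, with 399; signal values are the authors' own, are compared here only within a list, and how they were scaled is not stated in the labels or files. Both replicates thus placed it near the top of lists of 30000 and 29279 regions. The summit lay 408 bp upstream of an alternative start of Msp300, 7227 bp downstream of the first of its 5 start sites, and so inside the longer transcripts. With a window of 250 bp it was not counted at a start site.

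The peak at mbc, which encodes an unconventional exchange factor for the GTPase Rac needed for fusion, was next (chr3R:23781570-23781675, signal value 291, rank 595). It ranked 652 in replicate 2 and 580 in replicate 3. The summit was 152 bp upstream of mbc but 8 bp from a start of Nup98-96, a nuclear pore gene, and inside an exon of it. Of the 7 genes bound at a start site, mbc alone shared its peak with the start of another gene, and counted for the nearest start only it was no longer bound there.

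At sls, which encodes the titin-like proteins of the fly sarcomere, overlapping regions gave separate summits. The region at chr3L:2115641-2116064 had a value of 208, its summit 242 bp upstream of the start and ranks of 812 in replicate 2 and 1445 in replicate 3. The region at chr3L:2115848-2116271 had 101.9, its summit 449 bp upstream and ranks of 3179 and 5159 in replicates 2 and 3. The single peak at Tm1, which encodes a tropomyosin, (chr3R:15280895-15281318) had a signal value of 131. Its summit was 264 bp upstream of an internal start and 2887 bp downstream of the first of 8 start sites, and it ranked 4024 in replicate 2 and 1871 in replicate 3.

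The start-site peaks at how and tin had signal values near that of Tm1. At how, which encodes an RNA-binding protein of the STAR family active in muscle and tendon cells, the region at chr3R:22041686-22042109 reached 133, with ranks of 2488 in replicate 2 and 2397 in replicate 3. At tin the region at chr3R:21378532-21378955 reached 127, with ranks of 2856 in replicate 2 and 2442 in replicate 3. All 8 start-site summits of the muscle and heart genes, 2 of them from the overlapping regions at sls, lay upstream of the nearest start of their gene. The upstream share over all IDR peaks at start sites is not given here. The median signal value of the 8 was 132, against 149 over the 2148 IDR peaks at start sites of any gene, and 3 of the 8 were above 149.

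Sequence around 1 summit of each role, in a window clear of exons, is shown to let the base composition be read. For the fusion, sarcomere and other genes it is the strongest start-site or intronic summit of the role, and for the regulators it is the intronic summit of nau, which is weaker than that of Mef2. Each window runs 50 bases to either side of the summit, from the RefSeq Release 6 assembly on build dm6, written 5′ to 3′ on the strand of the gene. Capitals mark any of 12 motifs searched on both strands, and a window without capitals holds none of them.
Msp300, start site, chr2L:5108054-5108154: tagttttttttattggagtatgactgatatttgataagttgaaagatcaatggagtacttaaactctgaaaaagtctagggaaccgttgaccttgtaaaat
kirre, intron, chrX:3097172-3097272: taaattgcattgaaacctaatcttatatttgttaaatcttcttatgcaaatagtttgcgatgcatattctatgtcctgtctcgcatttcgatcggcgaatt
sls, start site, chr3L:2115803-2115903: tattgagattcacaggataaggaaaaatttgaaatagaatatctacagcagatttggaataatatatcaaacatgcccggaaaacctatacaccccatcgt
nau, intron, chr3R:23714082-23714182: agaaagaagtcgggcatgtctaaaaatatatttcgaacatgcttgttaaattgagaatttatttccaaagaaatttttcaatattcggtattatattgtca

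The windows were rich in A and T, and 3 more, chosen after their values were seen, show the summit lowest in G and C and the motifs that were found. The window at tin held 14.9% G and C, the lowest of the 31 summits at start sites and in introns, and copies of the TATA box read on the opposite strand. The window at how held GAGA repeats, the site type of Trl, and the intronic window of Msp300 held a MEF2 site that overlaps a TATA box.
tin, start site, chr3R:21378694-21378794: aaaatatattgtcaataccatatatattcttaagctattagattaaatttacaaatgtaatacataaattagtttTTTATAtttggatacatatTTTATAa
how, start site, chr3R:22041848-22041948: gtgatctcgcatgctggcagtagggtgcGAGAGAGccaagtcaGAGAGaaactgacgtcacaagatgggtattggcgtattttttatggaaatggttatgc
Msp300, intron, chr2L:5145652-5145752: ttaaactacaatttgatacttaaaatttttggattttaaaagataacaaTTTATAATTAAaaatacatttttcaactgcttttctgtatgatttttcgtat

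Over the 31 summits the median share of G and C within 50 bp was 29.7%, against 34.7% over all 4033 IDR summits. The CGCG core of the box that Camta proteins bind in vitro was in 0 of the 31 windows, against 11.6% of all IDR windows of the same length. The DRE (TATCGATA) was in 0 of 31, against 2.16%, and its core CGATA in 1, against 17.5%. The TATA box (TATAAA) was in 9 (29%), against 17.6%. Of the sites of muscle factors, the MEF2 site was in 1, against 5.7%, the tinman site (CACTTGA) in 0, against 1.88%, and the E-box CATATG in 0, against 4.04%. The E-box CACATG was in 1, against 3.77%, and the E-box CAGCTG in 1, against 4.76%. GAGAG was in 2, against 10.1%, and Motif 1 (GGTCACAC) and the T-box site (AGGTGTGA) in 1 each, against 1.29% and 0.298%; both of these matches were in the start-site window of Mef2 and overlap on opposite strands. These are matches of letters, not tested sites, and 15 of the 31 windows lie in a single gene, kirre. The 2 sets also differ in location: 23 of the 31 summits are intronic, whereas 2148 of the 4033 IDR summits lie at start sites. Shares by location are not given, so the differences cannot be read as a trait of muscle genes.

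Intronic summits, defined as lying inside a gene, outside every exon of its transcripts and over 500 bp from its start sites, were found in 7 of the 34 genes (20.6%), against 7.55% of protein-coding genes with an intron. They were in kirre, mbc and rols among the fusion genes, Mef2 and nau among the regulators, and how and Msp300 among the others. By role this was 3 of 4 fusion genes (75%), 2 of 7 regulators (28.6%) and 0 of 20 sarcomere genes. Whether the roles differ was not tested. Muscle and heart genes have long introns, with a median total of 6.84 kb a gene against 0.25 kb over all protein-coding genes. By class of length, 1 of 20 genes (5%) with up to 10 kb of intron had a summit, against 3.37% of all genes in that class, 5 of 12 (41.7%) with 10 to 50 kb, against 36.5%, and 1 of 2 with over 50 kb, against 49.4%. Read against genes of like intron length, the share of muscle and heart genes was close to that of all genes.

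**Figure D2:**
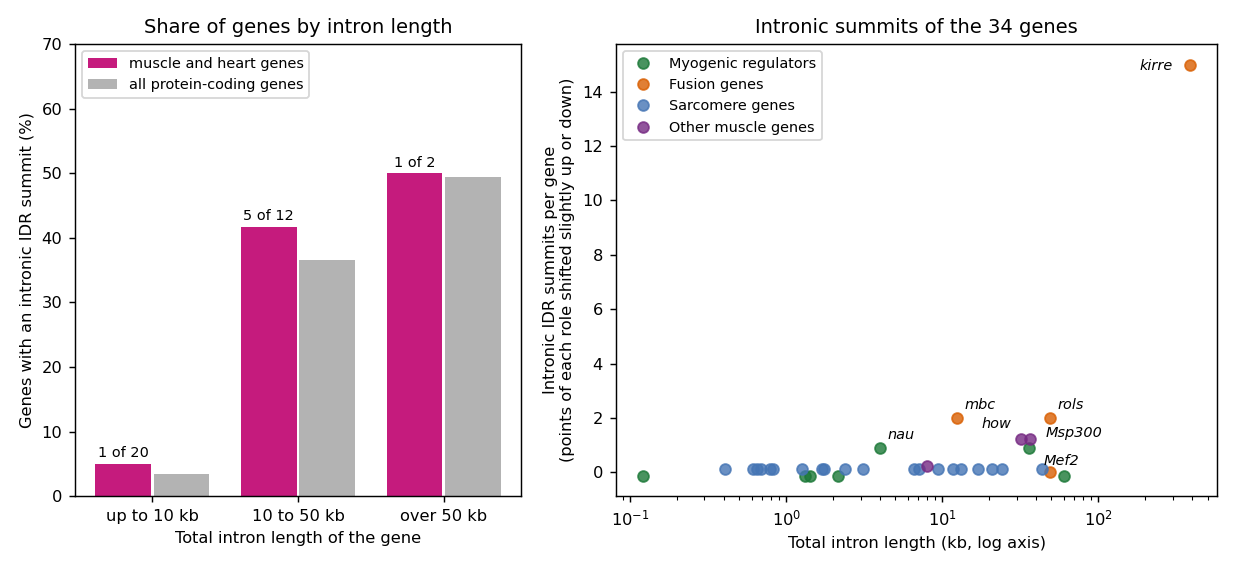
The left panel shows the percentage of genes with an intronic IDR summit by total intron length for the muscle and heart genes and for all protein-coding genes, with the number of muscle and heart genes written above their bars. The right panel shows intronic summits per gene against total intron length in kb on a log axis, coloured by role; kirre stands apart with 15 summits, and no sarcomere gene has any.

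The absence in sarcomere genes covered some with long introns. Mhc, the muscle myosin heavy chain gene, has 13.1 kb of intron, Tm1 20.8 kb, bt, which encodes a giant protein kinase of the thick filament, 24.1 kb, sls 16.9 kb, and the Z-disc genes Zasp52 and Zasp66 43.5 and 11.6 kb. None of these 6 genes in the class of 10 to 50 kb had an intronic IDR summit, against 36.5% of all genes in the class. In the second list of muscle and heart genes described below, 2 of 13 sarcomere genes of any intron length (15.4%) had one. Both were in the class of 10 to 50 kb, tmod with 38 kb of intron and Actn with 13.2 kb. The others of that list in the class, Lasp (30.9 kb), zormin (22.1 kb) and sals (10.5 kb), had none. The summit in Actn lay in an exon of usp, within 500 bp of starts of usp and CG4313, so it can belong to those genes. Over all 20 sarcomere genes 167.2 kb of intron held 0 summits. This count depends on the rule: the start-site summit of Tm1, 264 bp from an internal start, counts as intronic with a window of 250 bp, and Prm gains a summit among relaxed regions with a q value of 0.01 or less and when replicate 3 is left out. Fusion genes held 19 in 496.7 kb, which is 3.83 per 100 kb, regulators 2 in 105.8 kb, which is 1.89 per 100 kb, and all protein-coding genes 2.47 per 100 kb. Without kirre, fusion genes held 3.62 per 100 kb, from 4 summits in mbc and rols.

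kirre, whose product is the founder cell adhesion protein, held 15 intronic summits, and no protein-coding gene held more; CG1677 held as many in 119.9 kb of intron. kirre has 386.3 kb of intron and ranks the fifth by intron length. Its density of 3.88 per 100 kb was above the 2.47 over all protein-coding genes. It was far below the 19.1 of ush or the 12.5 of CG1677, which were picked for their many intronic summits. Signal values ranged from 96.0 to 427. The strongest (chrX:3097094-3097316) lay 2328 bp upstream of an internal start, with rank 262, and ranked 254 in replicate 2 and 292 in replicate 3. The next had 319 and 279, at 46.4 and 3.8 kb from the first start site, with ranks of 627 and 580 in replicate 2 and 456 and 709 in replicate 3.

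The summits of kirre fell into 2 stretches of the gene. Of the 15, 4 lay within 47.1 kb of the first start site and 11 from 237.9 kb on, and the 190.8 kb between them held none. Within 3.8 kb of the first start, 2 summits of 279 and 189.8 lay 152 and 331 bp from starts of Syx4, a syntaxin gene, so they can belong to Syx4. A pair of 319 and 209, at 46.4 and 47.1 kb, lay inside CG32795. The other 11 lay inside no other annotated gene, and their values ran from 96.0 to 427. Of these, the summit at 237.9 kb lay 10753 bp from the nearest start of kirre. It was 4464 bp from the start of rst, another fusion gene, which lies inside the stretch without summits. At the start sites of kirre the strongest region of the relaxed list reached 68.2, below the lowest IDR signal value of 95.3.

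**Figure D3:**
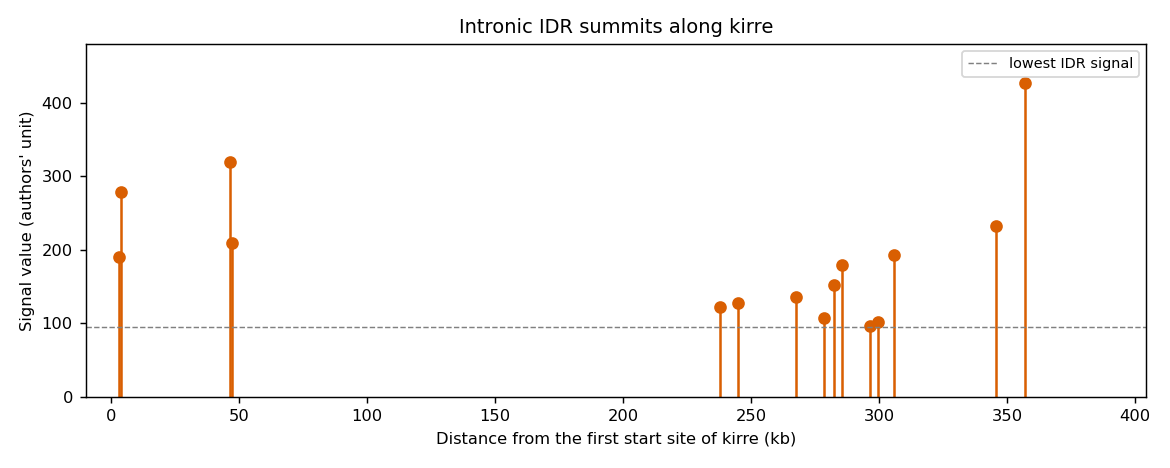
Intronic IDR summits along kirre, by distance in kb from its first start site, with the height of each line giving the authors' signal value; the dashed line is the lowest IDR signal value. Of the 15 summits, 4 lie within 47.1 kb of the start and 11 beyond 237.9 kb, with the highest, 427, at 356.8 kb.

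mbc held 2 summits in its first intron, 1208 and 2394 bp downstream of the start. That at 1208 bp (chr3R:23782819-23783031) reached 286, with ranks of 607 in replicate 2 and 667 in replicate 3, close to its start-site peak of 291. The other had 168 and ranks of 1690 and 1694 in replicates 2 and 3. rols, which encodes an adaptor that links the adhesion receptors of founder cells to the cytoskeleton, held a summit of 182 that lay 524 bp upstream of an internal start, just outside the window of 500 bp, and a weaker one of 107. Their ranks were 1116 and 2949 in replicate 2 and 1941 and 3844 in replicate 3. sns, the partner of kirre on fusion-competent myoblasts, had none in 48.9 kb of intron, and its strongest relaxed region, 48.5 at the start site, had no counterpart in replicate 3.

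Among the regulators, Mef2 held the most IDR summits. Its strongest IDR region (chr2R:9942902-9943053) reached 290.4, with ranks of 526 in replicate 2 and 684 in replicate 3, and its summit lay in a non-coding part of a Mef2 exon, 1781 bp downstream of a start site. A summit of 242 lay in the first intron at 9949255, with ranks of 675 in replicate 2 and 993 in replicate 3. The start-site peak, 37 bp upstream of the first start, was weak at 96.1 and rested on replicate 3, where it ranked 2759; in replicate 2 it ranked 10704. nau, which encodes the fly member of the MyoD family, held an intronic summit of 170.3, with ranks of 1294 in replicate 2 and 2028 in replicate 3, and no region at its start site.

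The intronic summits of how and Msp300 differed in how far the replicates shared them. That of how, at 22049317 on 3R and 7126 bp from the start, reached 197, with ranks of 987 in replicate 2 and 1485 in replicate 3. That of Msp300, at 5145702 on 2L and 684 bp upstream of an internal start, reached 115.1, with ranks of 8789 and 2062 in replicates 2 and 3. Of the 23 intronic summits, 21 lay at no start site of any gene, the exceptions being the 2 in kirre near Syx4. The median signal value of the 21 was 170.3, against 145.0 over the 1305 IDR peaks in introns of all protein-coding genes that lie at no start site, and 13 of the 21 were above 145.0. Most of the 21 lie in kirre, which holds 15 of the 23 intronic summits, so their median mainly describes that gene. Of the 31 summits, 27 were among the 4033 strongest regions of both replicates' lists, against 73.5% of all IDR peaks. The exceptions were the start-site peak of Mef2 and the intronic summit of Msp300, both outside in replicate 2, the weaker summit of sls, outside in replicate 3, and a kirre summit of 96.0, outside in both at 4805 and 4037.

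**Figure D4:**
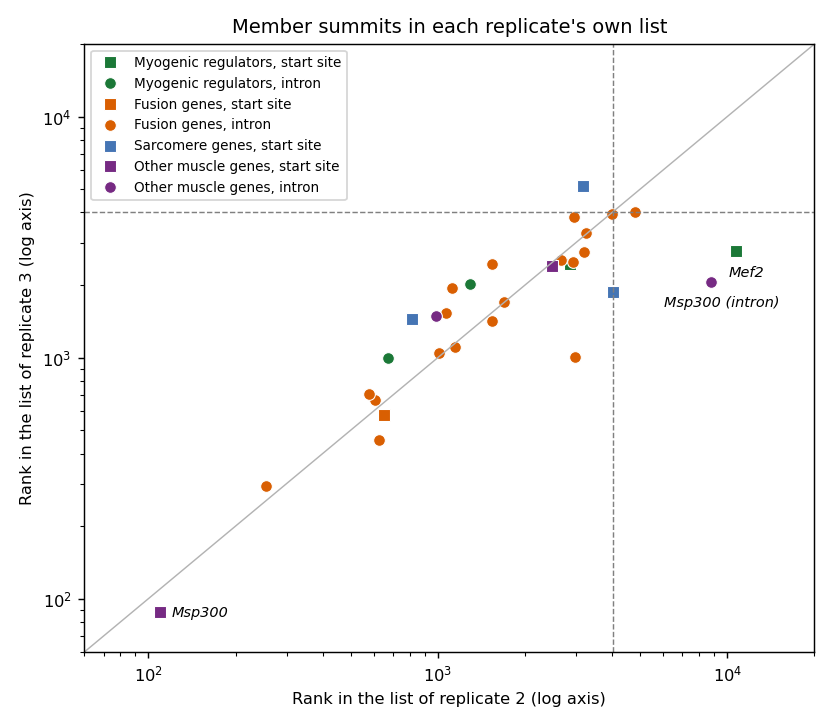
Rank of each of the 31 start-site and intronic summits in the relaxed list of replicate 2 and of replicate 3, on log axes, coloured by role, with squares for start sites and circles for introns. Dashed lines mark rank 4033, the number of IDR peaks; Msp300 sits at 110 and 88, and Mef2 and the intronic summit of Msp300 lie to the right of the line for replicate 2.

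No IDR summit at a start site or in an intron was found for 24 of the 34 genes, among them 18 of the 20 sarcomere genes. Most genes lack both: 18.8% of all protein-coding genes had a start-site summit, and 7.55% of those with an intron an intronic one. The exact share with neither, or with no relaxed region in either place, is not given. For 8 of the 24 genes the pooled relaxed list held no region in either place. They were bap, which encodes a homeodomain factor of gut muscle, the actin genes Act57B and Act88F, up, which encodes troponin T, Mlp60A, a muscle LIM protein gene, the myosin light chain gene Mlc1, and the troponin C genes TpnC41C and TpnC47D. Relaxed regions at start sites of the other sarcomere genes were weak. The strongest was that of Mlc2, the other myosin light chain gene of the list, at 65.6 (q = 0.033), then Zasp52 at 54.7, the actin gene Act87E at 53.1, Mhc at 42.3 and wupA, which encodes troponin I, at 35.2. The lowest were Mlp84B at 33.7, bt at 31.8, TpnC73F at 28.5 and the tropomyosin gene Tm2 at 27.6.

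In the introns of sarcomere genes the relaxed list came nearest to the IDR list at Prm, which encodes paramyosin, with 77.8 (q = 0.00698) and ranks of 3908 in replicate 2 and 7029 in replicate 3. wupA followed with 72.3 (q = 0.0134), Zasp66 with 71.4 (q = 0.0148) and Tm1 with 70.6 (q = 0.0156). Among the regulators, twi had 70.03 at a start site (q = 0.0163) and 67.2 in an intron. bin, a forkhead factor of gut muscle, had 30.6 in an intron, and lmd, a zinc finger factor of fusion-competent myoblasts, had 32.3. kon, which encodes a transmembrane protein of muscle attachment, had 31.6 at a start site, and no relaxed region there in replicate 3.

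Distances to the nearest IDR summit over all genes are not given here. Among these 24 genes the nearest IDR summit to a start site lay 1331 to 52091 bp away, and within 5 kb for 4 of them. For bin it lay 1331 bp upstream of the start, at 6989291 on 3L, with a signal value of 246, and bin was the gene with the nearest start. It ranked 1040 in replicate 2 and 751 in replicate 3. The same held for kon, with a summit of 109 at 1733 bp upstream, for Act87E, with 135 at 2076 bp downstream, and for Act57B, with 144 at 5566 bp upstream. For the other 20 genes another gene had the nearer start, as at bap, whose nearest IDR summit was the one at tin, 10136 bp away.

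A second list of 56 muscle and heart genes outside the 34, of which 54 matched a gene, gave a similar share at start sites. It held 11 genes (20.4%) with an IDR summit at a start site and 8 of the 52 with an intron (15.4%) with an intronic one, against 18.8% of all protein-coding genes and 7.55% of those with an intron. Its genes too have long introns, with a median of 4.5 kb against 0.25 kb over all protein-coding genes. All 8 were among the 23 genes with 10 to 50 kb of intron (34.8%), against 36.5% of all genes in that class. Its sarcomere genes were bound at a start site in 4 of 13 cases (30.8%), against the 2 of 20 among the 34. Some of these peaks were shared with other genes. The summit at cpa lay 400 bp from its start but 190 bp from a start of shg. That at unc-45 lay 131 bp from its start and 161 bp from a start of CG11035. Intronic summits were in 2 of its 13 sarcomere genes (15.4%), tmod and Actn, against 0 of 20 among the 34. That of Actn lay in an exon of usp, within 500 bp of starts of usp and CG4313, and can belong to those genes. Of the 10 fusion genes of the second list with an intron, 1 (10%) had an intronic summit, against 3 of 4 among the 34. For regulators with an intron the count was 2 of 21 (9.52%), against 2 of 7. These shares by role were not matched for intron length. The fusion genes of the second list had a median of 3.74 kb of intron, against 48.99 kb for those among the 34. These differences were not tested. The strongest start-site peaks were at Hem, a subunit of the SCAR complex, at 364 and shared with the start of IleRS, at the actin regulator WASp at 233, at tmod, which caps thin filaments, at 219.7, and at da, which encodes the partner of basic helix-loop-helix factors, at 217. The strongest intronic ones were at tmod with 408, at the zinc finger gene zfh1 with 330.0, at sr, which directs tendon cells, with 250.2 and at the integrin gene mew with 226. Of 5 genes of muscle attachment, 2 had a start-site summit and 3 an intronic one.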

How the data were processed

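The data were deposited peak lists on genome build dm6 from 2 replicates of whole Camta-eGFP embryos. Per the file headers and records, the authors made a relaxed list of peaks and background for each replicate and for the pool, and derived the optimal IDR list from these; no label or record names the aligner or peak caller. Per the labels, chromatin was sonicated. The signal value and the −log10 of the q value of each region are as deposited by the authors. Depth is unknown.

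Summits (region start plus the deposited offset) were placed on Ensembl release 115 (BDGP6.54, dm6 coordinates), without pseudogenes and transposable elements. A rank in a replicate is that of the region overlapping the IDR region with the nearest summit. The 34 genes, their roles, the second gene list (Arf51F and Unc-89 were not matched) and the motifs were chosen with earlier results of these data known. Every one of the 34 is named, and of the second list the 4 with the strongest summit in each location. The design has 1 group, so counts are given beside those of all genes without a test. Lists on build dm3 were not used. Alternatives covered the window, threshold, overlap rule, gene assignment and each replicate alone. Python 3.11.15, NumPy 2.4.6, pandas 2.3.3 and Matplotlib 3.10.9 were used.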

Additional observations from a re-analysis of the deposited data

How the results depend on the processing

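Of 91 values recomputed under the alternatives, 75 were classed as the same and 16 as moved. Counts were classed by whether they stayed within 1.5 times the reported count, and the median rank of the summits by the spread of the replicates. That rank was classed as moved without replicate 2, at 1871 against 1600. With a promoter window of 250 bp, 4 of the 34 genes were bound at a start site, and Tm1, how and Msp300 were lost. Sarcomere genes bound there fell to 1, 1 sarcomere gene (Tm1) had an intronic summit, and 5 genes of the second list were bound at a start site. No share over all protein-coding genes is given for windows other than 500 bp. Among the strongest 2016 IDR summits, 3 of the 34 were bound at a start site, 0 regulators and 1 sarcomere gene, and 5 of the second list, where 10.1% of all protein-coding genes were. With a window of 1000 bp, or with any base of a region counted, 2 fusion genes (mbc and rols) were bound at a start site, and with the nearest start only, 0. In relaxed regions with a q value of 0.01 or less, 7 of the 34 were bound at a start site, where 24.4% of all protein-coding genes were. There, 8 of the 34 had an intronic summit, against 9.42% of protein-coding genes with an intron, and 1 of these was a sarcomere gene (Prm). A replicate was left out by taking the 4033 strongest regions of the other. Without replicate 3, 6 of the 34 were bound at a start site, and without replicate 2, 7, against 18% and 18.9% of all protein-coding genes. This gave 1 to 2 regulators bound at a start site (Mef2 was lost without replicate 3) and 0 to 1 sarcomere genes with an intronic summit. Without replicate 3, Prm and twi gained an intronic summit and Msp300 lost its own, so 3 regulators had one. The median rank of the summits was 1543 to 1871, against 1600 in the IDR list. Within 100 bp of the summits 2 of 31 windows (6.45%) held CGCG, against 23.5% of all IDR windows of that length, again without a split by location. The count of the 34 genes with an intronic summit stayed within 1.5 times the reported one under all 8 alternatives. The count with a summit in neither place was 22 to 26, against 24 as reported; these alternatives were chosen for it after seeing the data. No paired analysis was possible because there is a single group. Depth is unknown, so a gene without a region cannot be told from one below detection.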
